A study of Homo sapiens with 8 samples.

Results

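The cytosolic ribosomal protein genes code for the proteins of the ribosome in the cytoplasm. They were chosen by symbol among protein-coding genes: RPL or RPS plus a number with any A, X or L suffix, together with RPLP0, RPLP1, RPLP2, RPSA and FAU. RPS6K kinases and readthrough genes were left out. The rule found 86 of the 57736 gene IDs in the files. These are 43 proteins of the large subunit, 32 of the small subunit, 3 of the stalk to which elongation factors bind, and 8 paralogs (RPL3L, RPL7L1, RPL10L, RPL22L1, RPL26L1, RPL36AL, RPL39L and RPS27L).

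Ribosomal protein mRNAs are among the most abundant and shortest of a dividing cell. In vertebrates most begin with a C followed by an unbroken run of pyrimidines, the 5′ terminal oligopyrimidine or TOP tract, through which mTORC1 and the protein LARP1 control their translation and stability together. HuR, an RNA-binding protein encoded by ELAVL1, binds AU-rich and U-rich stretches that lie mostly in 3′ untranslated regions, while the untranslated regions of ribosomal protein mRNAs are short.

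All 8 libraries came from IMR90, a line of human fetal lung fibroblasts. In the RNA-seq experiment 1 library was labelled KD, with ADAR1 knocked down, and 1 was labelled Ctrl. ADAR1, the product of ADAR, edits adenosines in double-stranded RNA. The precipitation experiment used shADAR1, shHuR and shControl cells, with short hairpin RNAs against ADAR1, HuR or neither. From each line, RNA was recovered with an anti-HuR antibody (1 precipitate) and sequenced beside the total RNA of the same cells (1 input). There was no mock precipitate here, each group held 1 library, and the labels do not say how many clones or which vector a line came from.

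Libraries held 28390935 to 50711218 counts. ADAR had 1445 counts in KD and 7732 in Ctrl (log2 ratio -2.81), and 3142 in the shADAR1 input and 12890 in the shControl input (-1.55). ELAVL1 had 674 counts in the shHuR input and 4806 in the shControl input (-2.72). All 12 fibroblast markers had counts in each library, and of the 3 endothelial markers CDH5 was at 0 in each. The endothelial markers summed to 11.3 CPM (counts scaled to library size) in KD and 1.99 in Ctrl, mostly KDR (538 counts in KD and 74 in Ctrl), and to 0.951 in the shADAR1 input, 0.602 in the shHuR input and 1.91 in the shControl input, mostly VWF. The 4 epithelial markers summed to 72.4 CPM in KD and 273 in Ctrl, and to 1.80 in the shADAR1 input, 0.975 in the shHuR input and 13.3 in the shControl input, mostly KRT19. The 4 leukocyte markers summed to 29.7 to 47.4 CPM in these 5 libraries, mostly CD68. The part of these markers in the results on ribosomal proteins was not tested. In bulk libraries, fewer cells of a type and less RNA per cell cannot be told apart.

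The starts of 69 of the 86 genes were found in a RefSeq promoter table (GRCh38.p14), and 48 of the 69 (69.6%) had, at a listed start, a C followed by at least 4 more pyrimidines. The same held for 1404 of all 27305 genes in that table (5.14%). The run had a median length of 8 bases among these 48 genes. Each sequence below is 30 bases, 15 before and 15 from the start on, written 5′ to 3′, with the pyrimidine run at the start in capitals. The minimum of 5 was set after the windows were seen, and the match describes letters only.

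The windows of the 5 genes with the lowest p-values in the test of precipitate against input are shown because they carry the main result of the precipitation experiment.
RPL39 (chrX:119791616-119791645, minus strand): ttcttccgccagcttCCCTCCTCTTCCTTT
RPL12 (chr9:127451392-127451421, minus strand): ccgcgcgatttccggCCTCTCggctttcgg
RPL26 (chr17:8383179-8383208, minus strand): aagcagcgtgtagttCTCTTCCCTTTTgcg
RPL34 (chr4:108620561-108620590, plus strand): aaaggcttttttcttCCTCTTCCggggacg
RPS13 (chr11:17077653-17077682, minus strand): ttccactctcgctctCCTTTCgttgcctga
In RPL39, whose protein lines the exit tunnel, the run was the longest among the 69 genes at 19 bases and goes on past the window.

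The next windows belong to the stalk genes, to RPS6 and to RPL41 and RPS16, which had the largest ratios in the RNA-seq experiment.
RPLP0 (chr12:120201097-120201126, minus strand): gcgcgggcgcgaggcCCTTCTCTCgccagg
RPLP1 (chr15:69452803-69452832, plus strand): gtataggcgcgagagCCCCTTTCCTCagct
RPLP2 (chr11:809952-809981, plus strand): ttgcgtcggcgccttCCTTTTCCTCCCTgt
RPS6 (chr9:19380222-19380251, minus strand): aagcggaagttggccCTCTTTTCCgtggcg
RPL41 (chr12:56116618-56116647, plus strand): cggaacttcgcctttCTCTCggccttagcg
RPS16 (chr19:39435935-39435964, minus strand): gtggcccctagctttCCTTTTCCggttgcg

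The last set compares paralogs and their parent genes, and adds RPS26, which did not pass the test of precipitate against input.
RPL22L1 (chr3:170870181-170870210, minus strand): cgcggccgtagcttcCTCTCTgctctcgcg
RPL22 (chr1:6199581-6199610, minus strand): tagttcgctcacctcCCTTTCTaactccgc
RPS27L (chr15:63157463-63157492, minus strand): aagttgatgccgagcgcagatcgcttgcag
RPS27 (chr1:153990747-153990776, plus strand): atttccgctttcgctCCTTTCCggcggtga
RPL26L1 (chr5:172958714-172958743, plus strand): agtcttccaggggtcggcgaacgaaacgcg
RPL7L1 (chr6:42879601-42879630, plus strand): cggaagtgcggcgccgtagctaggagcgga
RPS26 (chr12:56041903-56041932, plus strand): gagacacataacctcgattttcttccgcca
Of these, RPL22L1 and its parent RPL22 begin with a run of 6 and 7 pyrimidines. RPS27L, RPL26L1, RPL7L1 and RPS26 had no such run at their listed start, although RPS26 has pyrimidines close behind it.

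The ribosomal protein genes took 5.22% of all counts in KD and 3.58% in Ctrl. In the inputs their share was 1.44% in shADAR1, 1.28% in shHuR and 2.85% in shControl. In the precipitates it was 0.0933% in shADAR1, 0.178% in shHuR and 0.172% in shControl. The share was thus highest in the RNA-seq experiment and lowest in the precipitates. A pair of abundant IDs had no symbol in the gene names used here. They took 0.167% to 2.09% of the precipitates' counts and 10.5% to 13.6% of the inputs'. Without them the share of the ribosomal protein genes in the inputs was 1.65%, 1.43% and 3.30% in the same order of lines. Of the 86 genes, 84 had at least 100 counts in both RNA-seq libraries. RPL10L, a paralog known from testis, had 0 counts in every library, and RPL3L, known from striated muscle, had 2 counts in the shADAR1 precipitate and 0 elsewhere. Per length, the level over the other 84 genes ran from 17.8 FPKM (fragments scaled by transcript length and depth) for RPL39L to 3792 for RPL27 in KD, with a median of 1103, and from 15.99 for RPL39L to 3500 for RPS27 in Ctrl, with a median of 788.

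Levels of single genes did not match between the 2 experiments, even between their controls. RPS16 had 237 counts in the RNA-seq Ctrl and 12995 in the shControl input. RPSA, a small-subunit protein also known as the laminin receptor, had 23844 counts in the RNA-seq Ctrl and 597 in the shControl input, and RPL36A had 13900 in the RNA-seq Ctrl and 222 in the shControl input. Over the 82 genes with enough counts for all measures, the log2 counts of the 2 controls had a Spearman correlation of 0.29, given as a description since the genes share both libraries.

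Processed copies of these genes are spread over the genome, and the counts on IDs named as their pseudogenes differed between the experiments. Pseudogene IDs took 2.34% of the counts of members and pseudogenes together in KD and 1.95% in Ctrl. Their share was 10.3%, 8.95% and 6.90% in the shADAR1, shHuR and shControl precipitates, and 3.64%, 3.73% and 4.06% in the inputs of these lines. For RPS2 the shControl input held 36847 counts on the gene and 27221 on its pseudogenes, against 11999 and 679 in the RNA-seq Ctrl. For RPL36A it held 222 on the gene and 2913 on pseudogenes, against 13900 and 2987 in the RNA-seq Ctrl. In at least 1 library, pseudogene IDs held 20% or more of the summed counts of 15 members: RPL13, RPL17, RPL21, RPL22, RPL23A, RPL32, RPL36A, RPL39, RPL41, RPS2, RPS6, RPS10, RPS26, RPS28 and RPSA. Values of these genes are uncertain, since the counting may have split reads between near-identical copies.

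**Figure D1:**
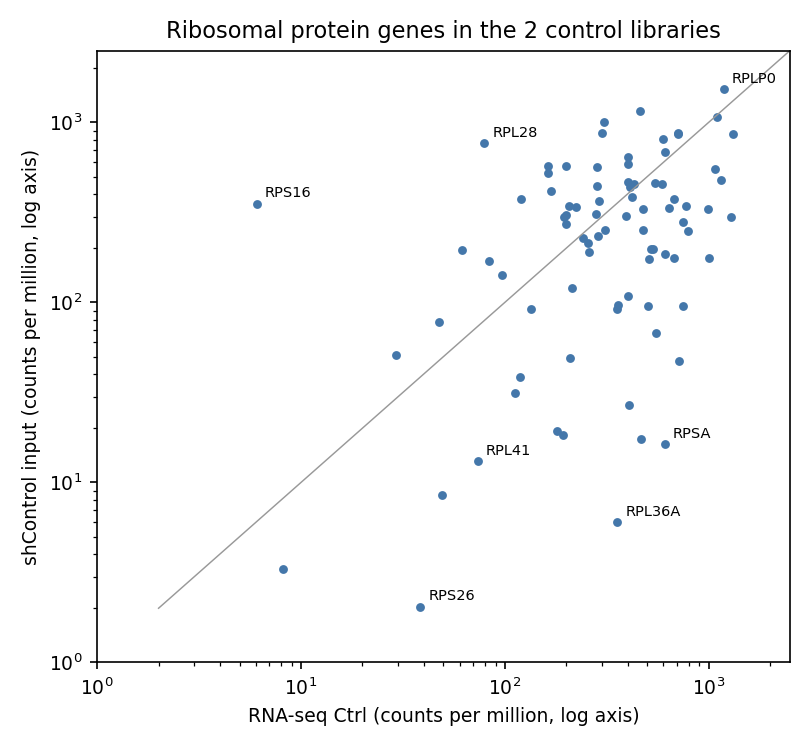
CPM of the ribosomal protein genes in the RNA-seq Ctrl library (x axis) and the shControl input (y axis), both on log axes; each point is 1 gene with counts in both, and the line marks equal values. RPS16 (237 counts in Ctrl, 12995 in the input) and RPL36A (13900 counts in Ctrl, 222 in the input) lie far from the line on opposite sides.

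The RNA-seq experiment asks how loss of ADAR1 changes RNA levels. Ribosomal protein mRNAs were slightly higher in KD than in Ctrl: the median log2 ratio was 0.55 over 84 genes (1.46-fold), with the middle range of the genes between 0.35 and 0.75, while the median of all 13235 genes with enough counts was -0.01. Of the 84, 80 lay above 0. A gene was called when it differed at least 2-fold with at least 50 counts in 1 of the libraries. By this rule 10 members were higher, against 8.31% of all genes, and 2 were lower, against 7.71% of all genes. With 1 library in each group these differences have no test, and the intervals below are exact binomial intervals at 95% that cover counting error only.

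The large subunit had a median log2 ratio of 0.55 and the small subunit of 0.53, with similar values for both subunits. RPL41, the shortest ribosomal protein, had 15346 counts in KD and 2882 in Ctrl and a log2 ratio of 2.02 (1.97 to 2.08), the highest of all members. Its pseudogene IDs held 13818 counts in KD and 3102 in Ctrl, and with these added the ratio was 1.90. RPS16, a small-subunit protein, had 1037 counts in KD and 237 in Ctrl (1.73; 1.54 to 1.95). RPS26, which lies near the exit of the mRNA channel, had 5345 counts in KD and 1508 in Ctrl (1.44; 1.35 to 1.52). The other 7 called higher were RPL13A, RPL23A, RPL30, RPL37A, RPS12 and the stalk proteins RPLP1 and RPLP2, with ratios between 1.01 and 1.19.

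The stalk is built on RPLP0, which carries RPLP1 and RPLP2. RPLP1 had 18761 counts in KD and 6396 in Ctrl (log2 ratio 1.16; 1.12 to 1.204), and RPLP2 had 29496 counts in KD and 10009 in Ctrl (1.17; 1.14 to 1.203). RPLP0 had 94068 counts in KD and 46356 in Ctrl (0.63; 0.62 to 0.65) and was not called. RPL5 and RPL11, which bind MDM2 together with 5S rRNA, were close to or below the middle of the family: RPL5 had 63988 counts in KD and 42121 in Ctrl (0.21), and RPL11 had 36795 counts in KD and 20962 in Ctrl (0.42). RPS6, the target of the S6 kinases, had 80895 counts in KD and 51737 in Ctrl (0.26). FAU, which joins a ubiquitin-like protein to RPS30, had 7328 counts in KD and 3794 in Ctrl (0.56), and RPSA had 52574 counts in KD and 23844 in Ctrl (0.75).

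The 3 members lowest in KD were paralogs. RPL22L1, which can take the place of RPL22, had 2450 counts in KD and 4371 in Ctrl (log2 ratio -1.22; -1.30 to -1.15), or 118 FPKM in KD and 327 in Ctrl. Its parent RPL22 had 37933 counts in KD and 19871 in Ctrl (0.54; 0.52 to 0.57). RPL7L1 had 2986 counts in KD and 4627 in Ctrl (-1.02; -1.09 to -0.95), against 50232 counts in KD and 21610 in Ctrl for its parent RPL7 (0.83). RPL36AL had 7449 counts in KD and 7585 in Ctrl (-0.42), while RPL36A had 24682 counts in KD and 13900 in Ctrl (0.44). RPL26L1, RPL39L and RPS27L had ratios of 0.64, 0.25 and 0.57, so the paralogs did not move as a group. RPL6 at -0.04 was the only member below 0 that is no paralog.

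The ratio followed transcript length over all genes, and the ribosomal protein transcripts are short. Their effective length, the length that the deposited counts and FPKM imply, had a median of 413 bases, against 1965 for other genes. Between 250 and 500 bases the median log2 ratio was 0.56 for 43 members and 0.53 for 495 other genes; above 5000 bases it was -0.35 for 917 other genes. With the trend over length, fitted on the other genes, taken out of the ratios, the member median was 0.00, and 2 members remained 2-fold higher, RPL41 (1.30) and RPS16 (1.10), against 6.72% of 13211 genes. RPL22L1 (-1.85) and RPL7L1 (-1.10) remained 2-fold lower, against 6.74% of all genes. The median by deposited FPKM was 0.39.

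**Figure D2:**
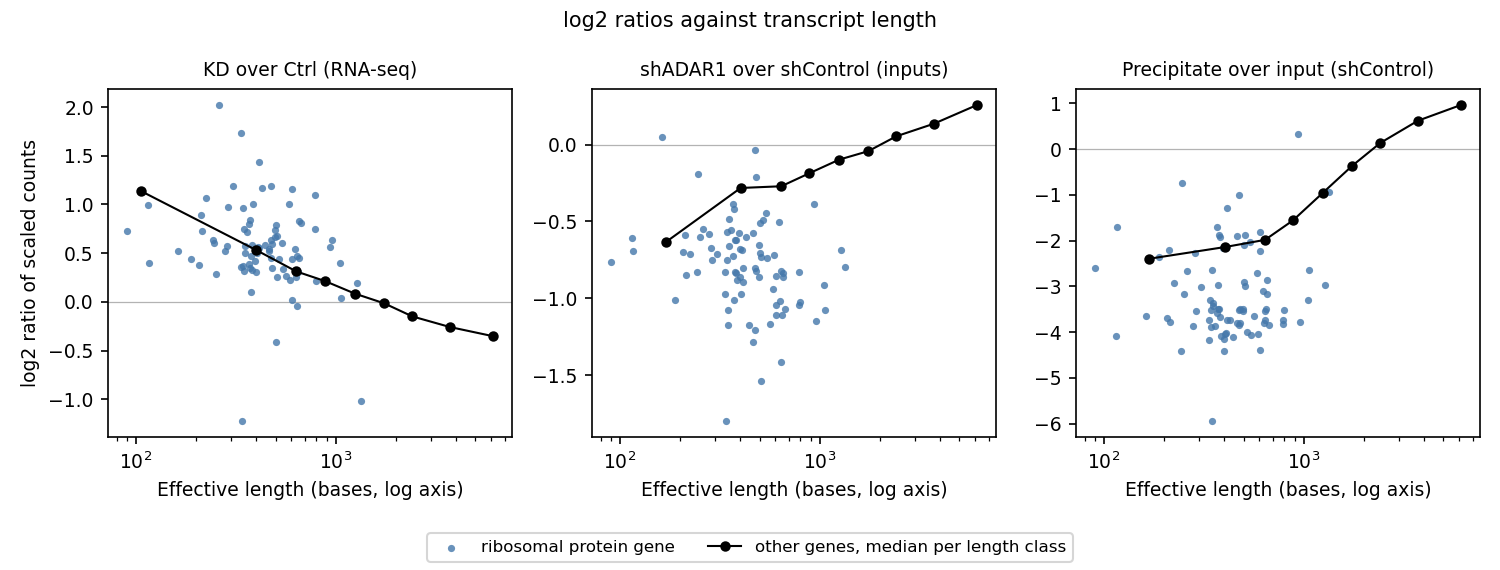
log2 ratio (y axis) against effective transcript length in bases (log x axis) for KD over Ctrl, shADAR1 over shControl input and shControl precipitate over input. Points are ribosomal protein genes, and black dots joined by a line are medians of other genes per length class; members lie around the line in the left panel and mostly below it in the other panels.

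The inputs ask the same of shADAR1 and shHuR cells. In the shADAR1 input nearly all ribosomal protein mRNAs were lower than in the shControl input: the median log2 ratio was -0.78 over 84 genes, against -0.03 for all genes, and 83 of 84 lay below 0. Of the members 20 were called lower, against 10.3% of all 13192 genes, and 0 were called higher, against 9.14% of all genes. Both inputs are set against the same shControl input, so the values of shADAR1 and shHuR below are not independent.

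RPS2, a small-subunit protein with many processed copies, had 9883 counts in the shADAR1 input and 36847 in the shControl input (log2 ratio -1.41; -1.44 to -1.38). RPL5 had 7094 counts in the shADAR1 input and 20173 in the shControl input (-1.02; -1.06 to -0.98), and RPS6 had 11127 counts in the shADAR1 input and 31592 in the shControl input (-1.02; -1.05 to -0.99). RPL11, the partner of RPL5, had 3495 counts in the shADAR1 input and 7300 in the shControl input (-0.58) and was not called. Of the stalk, RPLP0 had 18096 counts in the shADAR1 input and 56208 in the shControl input (-1.15), RPLP1 had 6630 counts in the shADAR1 input and 19172 in the shControl input (-1.05), and RPLP2 had 3684 counts in the shADAR1 input and 7837 in the shControl input (-0.60). FAU stood at -0.69, and RPSA at -0.83 on 239 counts in the shADAR1 input and 597 in the shControl input.

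The 2 lowest members, RPL22L1 and RPL39L, were again paralogs, and another paralog lay near 0. RPL22L1 had 237 counts in the shADAR1 input and 1159 in the shControl input (-1.80; -2.01 to -1.60), while RPL22 had 3051 counts in the shADAR1 input and 6366 in the shControl input (-0.57; -0.64 to -0.51). RPL39L had 29 counts in the shADAR1 input and 122 in the shControl input (-1.53; -2.22 to -0.99), while RPL39 had 4627 counts in the shADAR1 input and 6275 in the shControl input and was the highest member (0.05; -0.01 to 0.10). RPL26L1 had 218 counts in the shADAR1 input and 313 in the shControl input (-0.04; -0.29 to 0.22), with RPL26 at -0.58. RPL27, a large-subunit protein, was the only other member above -0.20, with 1091 counts in the shADAR1 input and 1743 in the shControl input (-0.19). RPL7L1, RPL36AL and RPS27L stood at -0.80, -0.51 and -0.38.

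In the shHuR input the median log2 ratio to the shControl input was -0.95 over 84 genes, against -0.02 for all genes, and 81 of 84 lay below 0. Of the members 35 were called lower, against 15.6% of all 13390 genes, and 0 were called higher, against 12.2% of all genes. RPLP0 had 16278 counts in the shHuR input and 56208 in the shControl input (-1.67; -1.70 to -1.65). RPL3, at the peptidyl transferase centre, had 9497 counts in the shHuR input and 32134 in the shControl input (-1.64), and RPS9, of the small subunit, stood at -1.66. RPS6 had 12225 counts in the shHuR input and 31592 in the shControl input (-1.25), RPL5 had 7753 counts in the shHuR input and 20173 in the shControl input (-1.26), and RPSA had 199 counts in the shHuR input and 597 in the shControl input (-1.46).

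RPL22L1 had 149 counts in the shHuR input and 1159 in the shControl input, the lowest ratio of a member (-2.83; -3.10 to -2.60). RPL39L had 16 counts in the shHuR input and 122 in the shControl input (-2.68; -3.67 to -2.06). At the other end, RPS27L, a known target of p53, had 3733 counts in the shHuR input and 3508 in the shControl input (0.20; 0.14 to 0.27). RPL26L1 had 300 counts in the shHuR input and 313 in the shControl input (0.05; -0.18 to 0.29) and RPS26 had 71 counts in the shHuR input and 75 in the shControl input (0.03; -0.45 to 0.52). RPL36AL and RPL7L1 stood at -0.08 and -0.20, so 4 of the 6 measured paralogs were close to the middle of all genes and 2 were far below it.

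**Figure D3:**
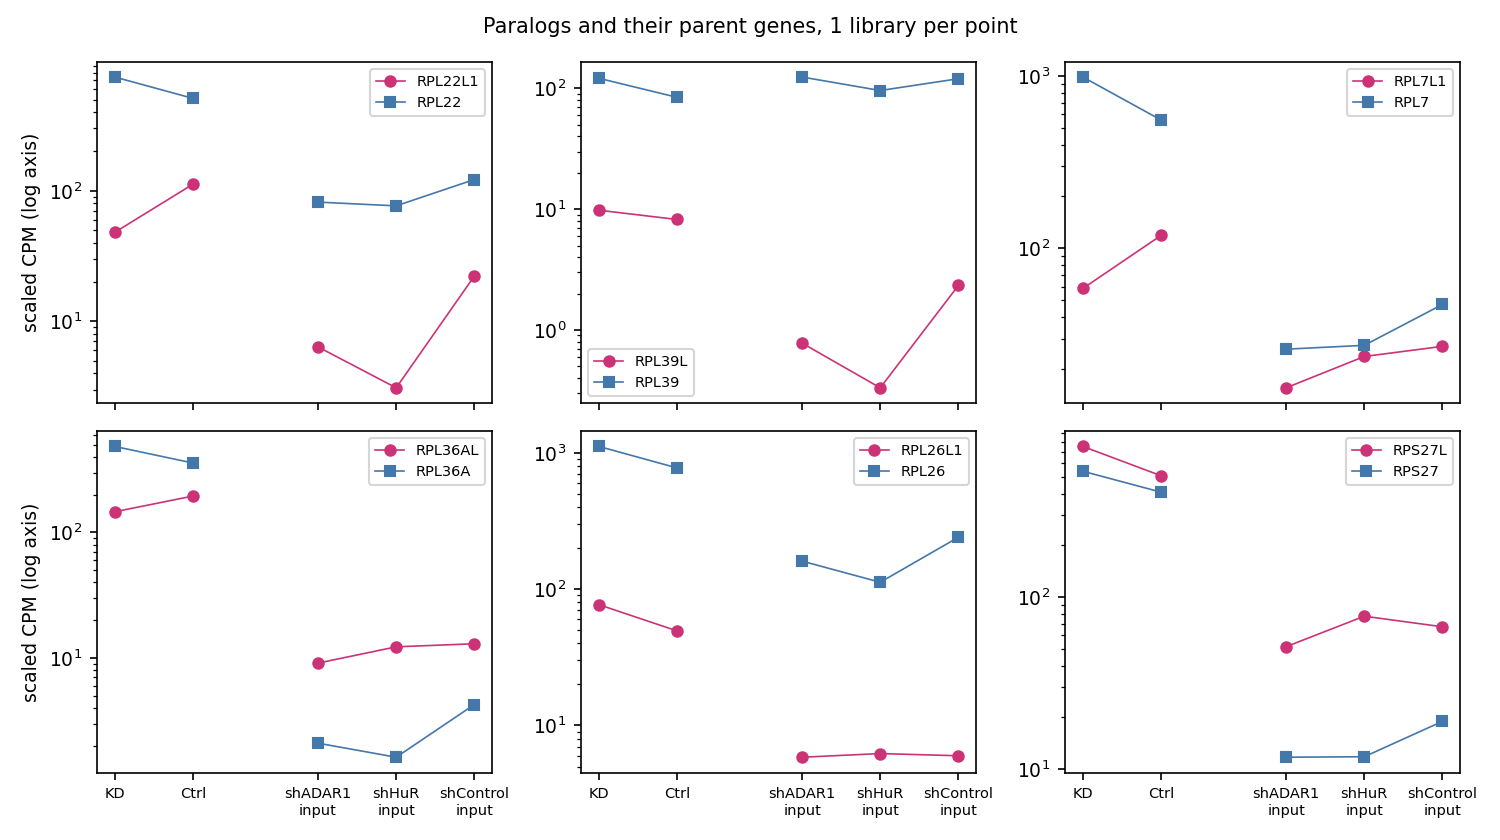
CPM after scaling (log y axis) of 6 paralogs (circles) and their parent genes (squares) in KD, Ctrl and the shADAR1, shHuR and shControl inputs, with 1 library per point. RPL22L1 is lower in KD (2450 counts) than in Ctrl (4371 counts) and lower in both knockdown inputs than in the shControl input, while RPL22 is higher in KD.

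Set directly against each other, shHuR and shADAR1 inputs differed little: the median log2 ratio of shHuR to shADAR1 was -0.17. RPL22L1, with 149 counts in shHuR and 237 in shADAR1 (-1.03; -1.35 to -0.74), was the 1 member called lower, against 9.67% of all 13020 genes. Of the members 0 were called higher, against 5.24% of all genes. RPS26 was highest at 0.84 (0.24 to 1.54) on 71 counts in shHuR and 30 in shADAR1, or 0.10 with its pseudogenes added, and RPL7L1 followed at 0.60.

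In the inputs the members also lay below other genes of their own length, a difference that was not tested. Between 250 and 500 bases the 43 members had a median of -0.72 in the shADAR1 input, against -0.28 for 421 other genes of that length. In the shHuR input they stood at -0.92, against -0.10 for 441 other genes. The gap was smaller under 250 bases. There the 11 members had a median of -0.70 in the shADAR1 input, against -0.63 for 134 other genes. In the shHuR input these 11 had -0.69, against -0.37 for 145 other genes. With the length trend taken out, the median was -0.44 in shADAR1, with 3 of 84 members called lower, against 9.36% of 12903 genes. In shHuR it was -0.56, with 20 of 84 called lower, against 13.7% of 13046 genes. By this measure the members' medians lay below 0, while the share called in shADAR1 (3 of 84) was not above that of all genes.

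**Figure D4:**
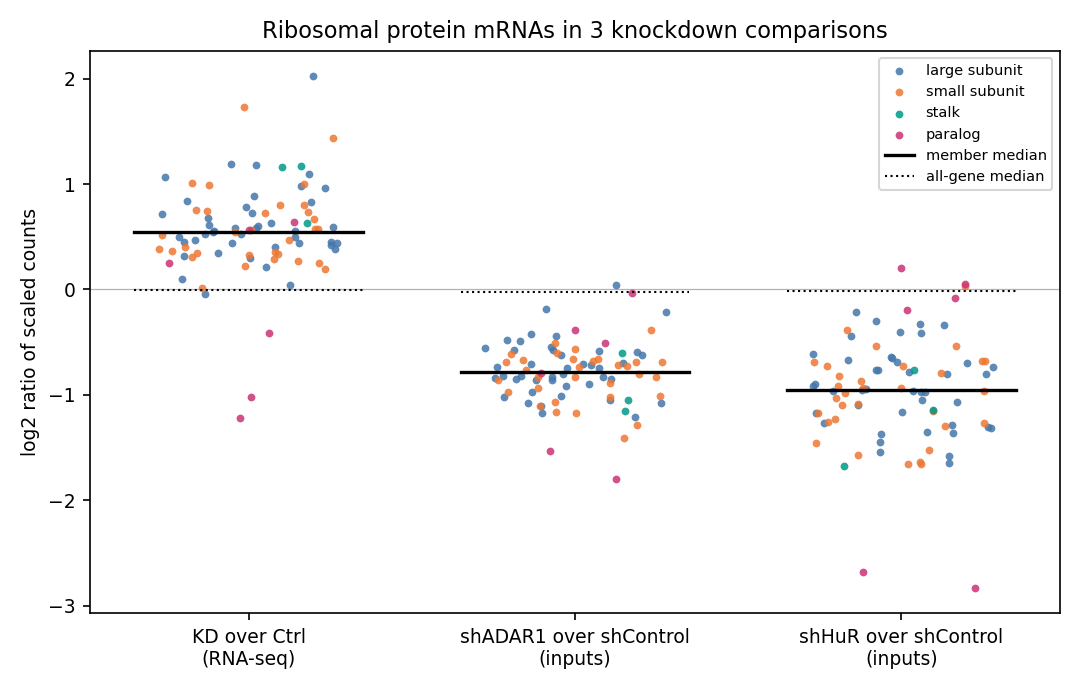
log2 ratios of scaled counts (y axis) for KD over Ctrl, shADAR1 over shControl input and shHuR over shControl input; each point is a ribosomal protein gene, coloured by its place in the ribosome, with the member median (solid) and the all-gene median (dotted). The member medians are 0.55, -0.78 and -0.95, with RPL22L1 and other paralogs at the edges.

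ADAR1 knockdown thus went with higher ribosomal protein mRNAs in the RNA-seq and lower ones in the inputs. Of 84 members, 79 were higher in KD than in Ctrl and lower in the shADAR1 input than in the shControl input (94.0%), against 27.0% of 12250 genes. In both experiments 4 were lower (RPL22L1, RPL7L1, RPL36AL and RPL6) and 1 was higher (RPL39). With the length trend taken out, 40 of the 84 were higher in KD and lower in the shADAR1 input (47.6%), against 24.5% of 12250 genes, and 2 were lower in KD and higher in the shADAR1 input (RPL27 and RPL39). Opposite signs in either direction were then seen in 42 of the 84, against 51.1% of all genes. The difference between the experiments was not tested.

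A test over both experiments was possible with the experiment as block, on 4 libraries with 1 residual degree of freedom. By edgeR's quasi-likelihood test, 0 of 84 members rose, against 0.0813% of 15994 genes, and 0 fell, against 0.0125% of all genes. The unadjusted p was under 0.05 for 1 member in edgeR, against 761 of 15994 genes. In DESeq2 it was under 0.05 for 2 members, against 728 of all genes, and 0 members were called there as well. RPL22L1 had the lowest p, with a log2 fold change of -1.52 ± 0.44 (SE, 4 libraries; lower in 2 of 2 experiments; edgeR adjusted p = 0.526). RPL7L1 followed at -0.92 ± 0.42 (edgeR adjusted p = 0.9998), and RPL41 at 0.75 ± 0.64.

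The precipitates ask which mRNAs are recovered with HuR. Ribosomal protein mRNAs were scarce in them in all 3 lines. Against the input of the same line, the median log2 ratio was -3.27 in shADAR1 (82 genes), -2.06 in shHuR (83 genes) and -3.50 in shControl (84 genes), while the medians of all genes were -0.26, -0.26 and -0.25. By edgeR's quasi-likelihood test over the 3 lines, with the line as block and 2 residual degrees of freedom, 81 of 84 members fell, against 32.7% of 15342 genes, and 0 rose, against 31.3% of all genes. The median log2 fold change was -2.87, against -0.11 over all genes, and adjusted p-values of the 81 ran from 1.36e-05 to 0.0486 in edgeR. With the counts of pseudogene IDs added to their members, 79 of 84 fell and 2 rose by the same test. Over all 15308 genes tested in this way 5016 fell and 4792 rose. RPL17, a large-subunit protein, had 26, 44 and 24 counts in the shADAR1, shHuR and shControl precipitates, with 782, 1242 and 575 more on its pseudogenes, against 312, 447 and 642 in the inputs, with 132, 168 and 81 more on its pseudogenes. Its log2 fold change was -3.06 on the gene alone (edgeR adjusted p = 0.000221) and 1.35 with pseudogenes added (edgeR adjusted p = 0.0107), so its direction depends on this choice. RPS26 turned to 1.41 (edgeR adjusted p = 0.00585), and RPL23A moved to -0.13 (edgeR adjusted p = 0.673), against -3.20 on the gene alone. The lines stood in as replicates, so the p-values speak only of the scatter among these 6 libraries.

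RPL39 had 232, 229 and 290 counts in the shADAR1, shHuR and shControl precipitates, against 4627, 4629 and 6275 in the inputs (log2 fold change -3.56 ± 0.32, SE; lower in 3 of 3 lines; edgeR adjusted p = 1.36e-05). RPL12, at the base of the stalk, had 309, 339 and 540 counts in the precipitates and 6561, 6025 and 16663 in the inputs (-3.70 ± 0.35, the lowest fold change of the 81). In both genes each precipitate lay far below its input. RPL26, RPL34 and RPS13 stood at -3.52, -3.43 and -3.27. RPL5 stood at -3.13, RPL11 at -2.26, RPS6 at -3.10, FAU at -2.84, RPSA at -3.11 and RPL41 at -2.77. The stalk proteins RPLP0, RPLP1 and RPLP2 had fold changes of -2.81, -3.50 and -3.04, so low recovery was seen in each part of the ribosome.

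The members that stood apart were few. RPS27L had 1011, 1932 and 2546 counts in the shADAR1, shHuR and shControl precipitates, against 1919, 3733 and 3508 in the inputs (0.03 ± 0.30; edgeR adjusted p = 0.931). Its log2 ratio was -0.71 in shADAR1, 0.30 in shHuR and 0.33 in shControl, while its parent RPS27 fell (-1.71 ± 0.33). RPL7L1 had 254, 336 and 428 counts in the precipitates and 579, 1138 and 1411 in the inputs (-0.75 ± 0.31; edgeR adjusted p = 0.0529), while RPL7 fell (-2.59 ± 0.41). RPS26 had 16, 9 and 17 counts in the precipitates and 30, 71 and 75 in the inputs (-1.19 ± 0.53; edgeR adjusted p = 0.0690), where counting error is large. RPS20, a small-subunit protein, was nearest to the limit among those that fell, with 2077, 3118 and 2119 counts in the precipitates and 5535, 6676 and 13827 in the inputs (-0.94 ± 0.38; edgeR adjusted p = 0.0486).

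Of the 6 paralogs with enough counts 4 fell: RPL22L1 (-3.59 ± 0.39), RPL36AL (-2.75 ± 0.36), RPL39L (-2.36 ± 0.68) and RPL26L1 (-1.90 ± 0.42). RPL22L1 had 14, 4 and 67 counts in the shADAR1, shHuR and shControl precipitates, against 237, 149 and 1159 in the inputs. Its fall was thus larger than that of RPL22 (-1.76 ± 0.28), a difference that was not tested.

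Within the lines, 80 of 82 members were called lower in shADAR1 precipitate than in input, against 37.5% of 13114 genes, and 0 higher, against 30.0% of all genes. In shHuR 73 of 83 were lower, against 25.4% of 13061 genes, and 0 higher, against 25.5% of all genes. In shControl 80 of 84 were lower, against 38.4% of 13309 genes, and 0 higher, against 30.7% of all genes. The 2 members not called in shADAR1 were RPL7L1 and RPS27L, and the 4 in shControl were these and RPL26L1 and RPL27. Over 82 members the enrichment in shControl had a Spearman correlation of 0.70 with that in shADAR1 and 0.42 with that in shHuR, as a description of genes that share libraries.

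Recovery also followed length over all genes. In shControl, other genes of 250 to 500 bases had a median log2 ratio of -2.14 (430 genes) and those above 5000 bases of 0.97 (903 genes). The 43 members of 250 to 500 bases had a median of -3.52. With the length trend taken out, the member medians were -2.08 in shADAR1, -1.42 in shHuR and -2.02 in shControl, and 71, 67 and 64 members were called lower, against 34.2%, 26.3% and 34.7% of all genes. Over the members themselves, mean enrichment and log2 length had a Spearman correlation of 0.15 (82 genes). The 48 genes with a pyrimidine run at their start had a median of -3.64 in shControl. The 20 measured genes with a window but no run had -2.93, and the 16 without a window -3.26. The gap between run and no run was smaller in the other lines. With and without a run, the medians were -3.35 (48 genes) and -3.08 (19) in shADAR1, and -2.22 (48) and -2.05 (20) in shHuR. These values are given as a description.

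**Figure D5:**
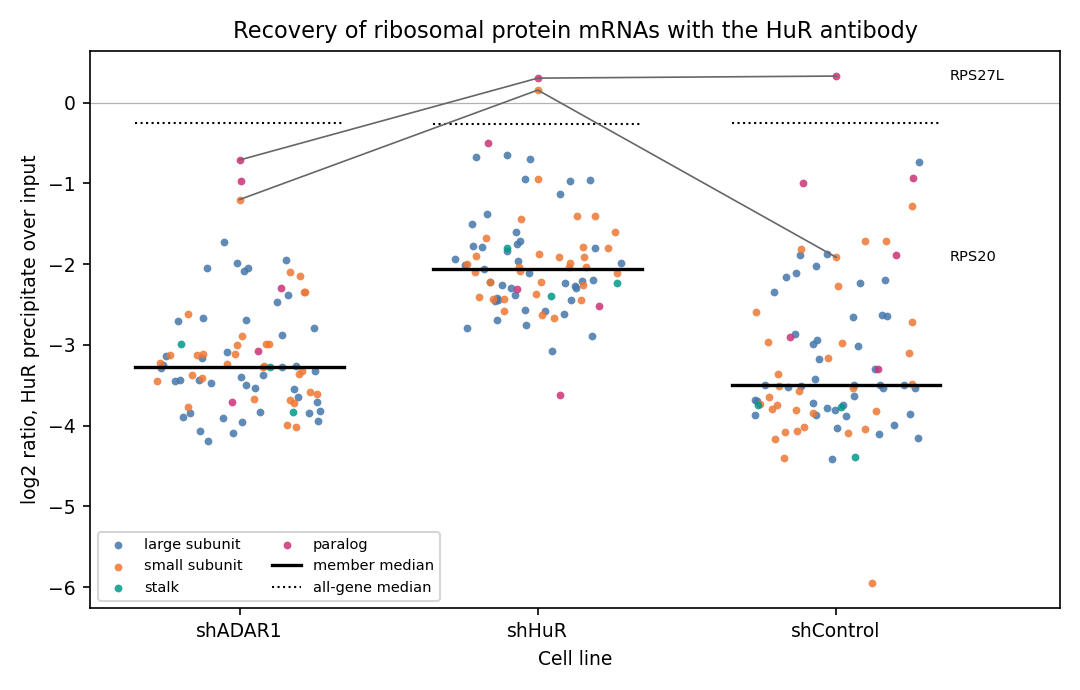
log2 ratio of HuR precipitate over input (y axis) in shADAR1, shHuR and shControl cells; each point is a ribosomal protein gene, grey lines join the values of RPS27L and of RPS20, and bars mark the member median (solid) and the all-gene median (dotted). The member medians are -3.27, -2.06 and -3.50, and RPS27L is the highest point in each line.

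The lines ask whether recovery with the antibody changes when HuR or ADAR1 is knocked down. A difference in enrichment between lines was called at 1.5-fold, with at least 50 counts in 1 library of each line, and has no test. Relative to input, ribosomal protein mRNAs were less depleted in shHuR than in shControl cells. The median difference in log2 enrichment was 1.31 over 83 genes, against 0.25 for all genes, and 75 of 83 lay above 0. A lower input raises this measure as much as a higher precipitate does. Members took 0.178% of counts in the shHuR precipitate and 0.172% in the shControl precipitate, but 1.28% and 2.85% in the inputs. The parts of input and precipitate in the difference were not tested. Of the members 65 were called higher, against 39.4% of 12468 genes, and 1 was called lower, against 23.5% of all genes. With the length trend taken out, the median difference was 0.43, with 35 members higher, against 30.1% of 12196 genes, and 12 lower, against 30.9% of all genes. ELAVL1 itself had 742 counts in the shHuR precipitate and 27765 in the shControl precipitate.

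Among the members with the largest differences, RPS10 had a log2 enrichment of -1.91 in shHuR (821 counts in the precipitate, 7370 in the input) and -4.40 in shControl (384 and 14099). RPS20 had 0.15 in shHuR and -1.92 in shControl. RPLP0, RPLP1 and RPLP2 had differences of 1.97, 1.99 and 1.51, RPS6 of 1.76 and FAU of 2.23. These were all higher in shHuR. The exception was RPL26L1, with a log2 enrichment of -2.52 in shHuR (21 and 300 counts) and -0.996 in shControl (90 and 313). RPS27L did not differ beyond 1.5-fold (difference -0.03), and neither did RPL22L1 (-0.33) or RPL7L1 (0.42).

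Between shADAR1 and shControl cells the median difference in log2 enrichment was 0.11 over 82 genes, against -0.03 for all genes. Of the members 11 were called higher, against 19.7% of 12641 genes, and 7 were called lower, against 14.2% of all genes. The direction turned round with the length trend taken out: the median difference was then -0.09, with 5 members higher, against 17.4% of 12348 genes, and 13 lower, against 15.9% of all genes. RPL27 had a log2 enrichment of -2.66 in shADAR1 (147 counts in the precipitate, 1091 in the input) and -0.73 in shControl (607 and 1743). RPS27L had -0.71 in shADAR1 and 0.33 in shControl, and FAU had -2.89 in shADAR1 and -4.01 in shControl.

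Other genes of the translation machinery gave values side by side with those of the ribosomal proteins. Of 25 other genes with TOP mRNAs, such as elongation factors, 0 were called in KD (median log2 ratio 0.25). Over all genes 8.31% were higher there and 7.71% lower. In the shADAR1 input 1 of the 25 was lower, HNRNPA1 (-1.34, with a list median of -0.57), against 10.3% of all genes. In the shHuR input 6 were lower (list median -0.74), against 15.6% of all genes. In the test of precipitate against input 18 of the 25 fell, against 32.7% of all genes, and 3 rose, against 31.3% (edgeR, median -1.95). The translation factor mRNAs EIF2S3 and EIF4B had log2 enrichments of 4.06 and 1.58 in shControl, while EEF1B2 stood at -3.79. The list thus held mRNAs far above and far below the middle. With the length trend taken out, its medians were 0.11 in KD, -0.32 in the shADAR1 input and -0.55 in the shHuR input. The precipitate medians were then -1.48 in shADAR1, -1.17 in shHuR and -0.71 in shControl. The list's difference from the ribosomal proteins was not tested.

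Of 38 genes of ribosome biogenesis, 2 were lower and 0 higher in KD (median log2 ratio -0.01), against 7.71% and 8.31% of all genes. In the shADAR1 input 3 were lower and 0 higher (-0.32), against 10.3% and 9.14%. In the shHuR input 1 was lower and 1 higher (0.02), against 15.6% and 12.2%. Of 18 genes of mTORC1 and of TOP mRNA control, 1 was higher and 1 lower in KD (0.09). In the shADAR1 input 1 was lower (-0.10), and in the shHuR input 1 was higher and 2 lower (0.04). The shares of all genes are those given beside the biogenesis genes. The medians of these regulators thus lay near 0, while single ones did not. EIF4EBP1, an inhibitor of cap-dependent translation, stood at -1.24 in the shADAR1 input and -2.57 in the shHuR input. EIF4EBP2 stood at 1.61 and SSB at -1.09 in KD, and MTOR at 1.05 and TIA1 at -1.07 in the shHuR input. In the precipitates 23 of the 38 biogenesis genes fell and 5 rose, and of the 18 regulators 7 fell and 6 rose, in edgeR. Over all genes 32.7% fell and 31.3% rose.

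Mitochondrial ribosomal proteins, of the separate ribosome in mitochondria, had a median log2 ratio of 0.31 in KD, with 3 of 75 called higher and 0 lower. Over all genes these shares were 8.31% and 7.71%. In the shADAR1 input the median was -0.44 with 10 of 74 lower, against 10.3% of all genes. In the shHuR input it was -0.21 with 6 of 74 lower, against 15.6% of all genes. Of 74 tested in the precipitates 57 fell, against 32.7% of all genes, and 9 rose, against 31.3% (edgeR, median -2.18). Most members of this second family were thus scarce in the precipitates too. With the length trend taken out, their medians were 0.07 in KD, -0.25 in the shADAR1 input and -0.06 in the shHuR input. Called lower in these inputs were then 2 and 3 of 74, against 9.36% and 13.7% of all genes. The precipitate medians were then -1.35 in shADAR1, -0.89 in shHuR and -1.52 in shControl.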

How the data were processed

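Gene-level expected counts were deposited by the authors for 2 RNA-seq and 6 precipitation libraries, from RSEM 1.2.3 on hg19 (GRCh37), as the submitters' processing notes say. The deposited values are whole numbers and were used as they were. The deposited FPKM of the RNA-seq entered 1 alternative and the effective lengths. Aligner, annotation release, strand setting and any filter are not given in the sources used here, so antisense genes cannot be separated from their partners. Per the labels' protocols the KAPA RNA HyperPrep kit served for all libraries and the Magna RIP kit for the precipitates.

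Libraries held 28390935 to 50711218 counts, and all columns were matched to samples by their headers. Ratios used TMM scaling (edgeR's trimmed mean) within each experiment and a prior count of 2. Scaling factors ran from 0.692 to 1.42. A gene was called at 2-fold with at least 50 counts in 1 library; differences in enrichment were called at 1.5-fold. The median half-width of the 95% counting interval of a member was 0.03 (log2) in the RNA-seq and 0.13 to 0.16 for enrichment. Reads without molecular identifiers are not independent molecules, so intervals cover counting error only.

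Tests were edgeR 4.0.16 quasi-likelihood fits in R 4.3.3 with TMM, edgeR's expression filter and p-values adjusted by Benjamini-Hochberg over all genes at 0.05, and were tested on simulated data. The block is the cell line or the experiment, by the labels; no replicate numbers are given. Each SE was worked back from the test, as the size of the log2 fold change over the square root of the test's F statistic. Length trends were fitted with mgcv 1.9.3 on genes that are no members. Alternatives were DESeq2 1.42.0, other scalings, a prior count of 0.5, no filters, no block, each line left out, pseudogene counts added, and the length trend removed. Removing length and GC trends together, and the tests with pseudogene counts added, were chosen after seeing the data.

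The members and lists were chosen with earlier results of these data known. Named were the 3 highest and 3 lowest members of each comparison, the members that passed or came nearest to a test, paralogs with their parents, stalk proteins, RPL5, RPL11, RPS6, RPSA, FAU and RPL41; RPS10, RPL3, RPS9, RPL27 and others outside this rule were named after their values were seen. The values of 1 further member that the rule names are not reported here; it is counted in the totals and medians. Start windows come from a RefSeq table of GRCh38.p14, a later build than that of the counts, and no coordinates of the files are given.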

Additional observations from a re-analysis of the deposited data

Results flagged for a closer look

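The ribosomal protein genes moved in opposite directions in the 2 experiments that compare ADAR1 knockdown with a control. The median log2 ratio of the members was 0.549 for KD over Ctrl in the RNA-seq and -0.780 for shADAR1 over shControl in the inputs, and 79 of 84 members were higher in KD and lower in the shADAR1 input. The difference was not tested, since each group held 1 library. With the length trend taken out, the medians were 0.00 and -0.44, and 40 of 84 members had these opposite signs, against 24.5% of all genes. For each gene the effective length implied by the deposited values was compared between KD and Ctrl. The median over genes of the log2 ratio of KD to Ctrl was 0.134 for members and 0.018 for other genes. The experiment, the knockdown line and the library cannot be told apart here.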

How the results depend on the processing

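Other scalings, prior counts and filters kept the direction of every member median. Removing the length trend moved the RNA-seq member median to 0.000327 with 2 members higher, and removing length and GC trends together reversed it to -0.0507, also with 2 higher; deposited FPKM gave 0.388. For the shADAR1 input the median was -0.895 with scaling by total counts, -0.851 with DESeq2 size factors, -0.439 with the length trend removed (3 members lower) and -0.570 with both trends removed (6 lower). For the shHuR input it was -0.559 with the length trend removed (20 lower) and -0.863 with both removed. For shHuR over shADAR1 input it was -0.0965 by total counts, -0.0819 with DESeq2 size factors and -0.248 with both trends removed; 0 members were lower by total counts, DESeq2 size factors or with the length trend removed, and 2 with no minimum count.

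Total counts put the precipitate medians at -4.13 in shADAR1, -3.04 in shHuR and -4.37 in shControl, and moved the medians of all genes to -1.11, -1.25 and -1.11. With the length trend removed the member medians were -2.08, -1.42 and -2.02, and with both trends removed -2.09, -1.42 and -1.99. Members called higher were then 1 in shControl (RPS27L, 1.37) with the length trend removed; with pseudogene counts added they were 1, 2 and 1 in shADAR1, shHuR and shControl, and with no minimum count 1 in shADAR1. RPS20 and RPS27L in shADAR1 reversed to 0.0783 and 0.191 with the length trend removed. RPL14 in shHuR reversed to 0.0239. RPL27, RPL26L1 and RPS26 in shControl reversed to 0.843, 0.495 and 0.243. The shADAR1 difference in enrichment reversed to -0.0949 with the length trend removed (5 members higher, 13 lower). The shHuR difference was then 0.433 (35 higher, 12 lower), 0.572 with both trends removed (41 higher, 6 lower), and 2 members were lower with no minimum count. For ratios, shares of all genes called are given only for the main setting and with the length trend removed. Member counts under the other settings cannot be set beside such a share. The cause of these shifts was not tested.

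In the test of precipitate against input, 78 members fell with no replicate block, against 3020 of 15342 genes. With DESeq2 82 fell, against 5135 of 15342 genes, and with DESeq2 size factors in edgeR 80, against 4968. With total counts 84 fell, against 8084 of 15342 genes, and with no filter 81, against 5350 of 25862. With a line left out 79 to 82 fell, against 3589 to 5863 of all genes (edgeR, 4 libraries, 1 residual degree of freedom). With pseudogene counts added 79 fell, against 5016 of 15308 genes, and 2 rose, RPL17 and RPS26, against 4792 of all genes. In the knockdown test 0 members passed with or without the block or under any other alternative run, while over all genes 13 rose and 2 fell with the replicate block and 0 and 0 without it. Leaving out a library was not possible in comparisons of 1 library with 1. In the precipitates 70 to 73 of 86 members had at least 100 counts, so low members such as RPS26 and RPL39L are limited by depth there.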
